A study of Bos taurus with 6 samples.

Results

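The 7 genes described here encode the inhibin and activin subunits (INHA, INHBA, INHBB), the activin-binding proteins follistatin and follistatin-like 3 (FST, FSTL3), and anti-Müllerian hormone with its type II receptor (AMH, AMHR2). They were found by the gene symbol of each array probe. Each of the 7 had 1 probe, and they are 7 of 15214 genes named on the array. The INHA, INHBA and INHBB probes are EMBV3_19489, EMBV3_39728 and EMBV3_39963, those of FST and FSTL3 are EMBV3_10434 and EMBV3_43421, and those of AMH and AMHR2 are EMBV3_30315 and EMBV3_16329.

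The cells were cumulus cells, the somatic cells around the oocyte, from Holstein cows in a study of 6 animals. In the cetrorelix group, cows were given follicle-stimulating hormone (FSH) for 3 days and then left 68 h without it. Cetrorelix treatment began on day 2 of FSH and lasted 5 days, with a daily dose of 12 mg. In the control group, cows had the same FSH and the same 68 h of withdrawal without cetrorelix, so FSH stimulation and withdrawal are common to both groups. Cetrorelix is known as an antagonist of gonadotropin-releasing hormone that lowers luteinizing hormone (LH), although the word agonist stands in the labels. The comparison asks how holding down basal LH in this way acts on cumulus gene expression, and no hormone level was analysed here. Neither the identity nor the number of cows behind a replicate is given in the labels. RNA was amplified before labelling, and there were 3 replicates of each group on 6 two-colour arrays, with each pair hybridised in both dye orientations.

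Inhibins and activins are built from shared subunits. An alpha subunit (INHA) joined to a beta subunit gives an inhibin, and a pair of beta subunits gives an activin. Activins from the follicle act on neighbouring cells and promote FSH secretion from the pituitary, whereas inhibins leave the ovary and lower FSH secretion. Follistatin and FSTL3 bind activins and keep them from their receptors. AMH is made by granulosa and cumulus cells of growing follicles and restrains follicle recruitment and the response to FSH, acting through AMHR2.

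All log2 ratios below are cetrorelix over control. A value per replicate is the mean of its 2 dye-swapped arrays, and an error is the SD of the 3 replicate values. The test was limma's moderated test of those 3 values against 0, with Benjamini-Hochberg adjustment over 32125 probes. The libraries set limits on every value here. Across tested probes, the dye-swapped arrays of replicates 1, 2 and 3 correlated at 0.079, 0.26 and -0.13, so over the array as a whole the ratios of replicate 3 ran slightly opposite ways in its 2 arrays. With the mean of each dye orientation subtracted, the same pairs correlated at 0.23, 0.40 and 0.42. Between 40.9% and 70.9% of gene probes lay above background in the cetrorelix channel, and between 54.8% and 69.7% in the control channel. Arrays have no read depth, and their number limits the precision.

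FSTL3, AMH and INHA had higher values in cetrorelix cells on 6 of 6 arrays, whereas INHBA, INHBB, FST and AMHR2 had values on both sides of 0. In folds, FSTL3 was 2.58 times, AMH 2.70 times and INHA 1.60 times its control level. None of the 7 passed at adjusted p under 0.05, a threshold that 0.0125% of all probes passed. At unadjusted p under 0.05, 3 of 7 were higher and 0 of 7 lower by limma, where 5.29% of all probes were higher and 5.82% were lower. With median centring in place of loess, 2 of 7 were lower. With mean pixel intensities in place of medians, an alternative chosen after seeing the data, 2 of 7 were higher, since AMH was no longer under that unadjusted p, and 1 of 7 was lower. A higher value on 6 of 6 arrays was found for 3.04% of all probes.

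**Figure D1:**
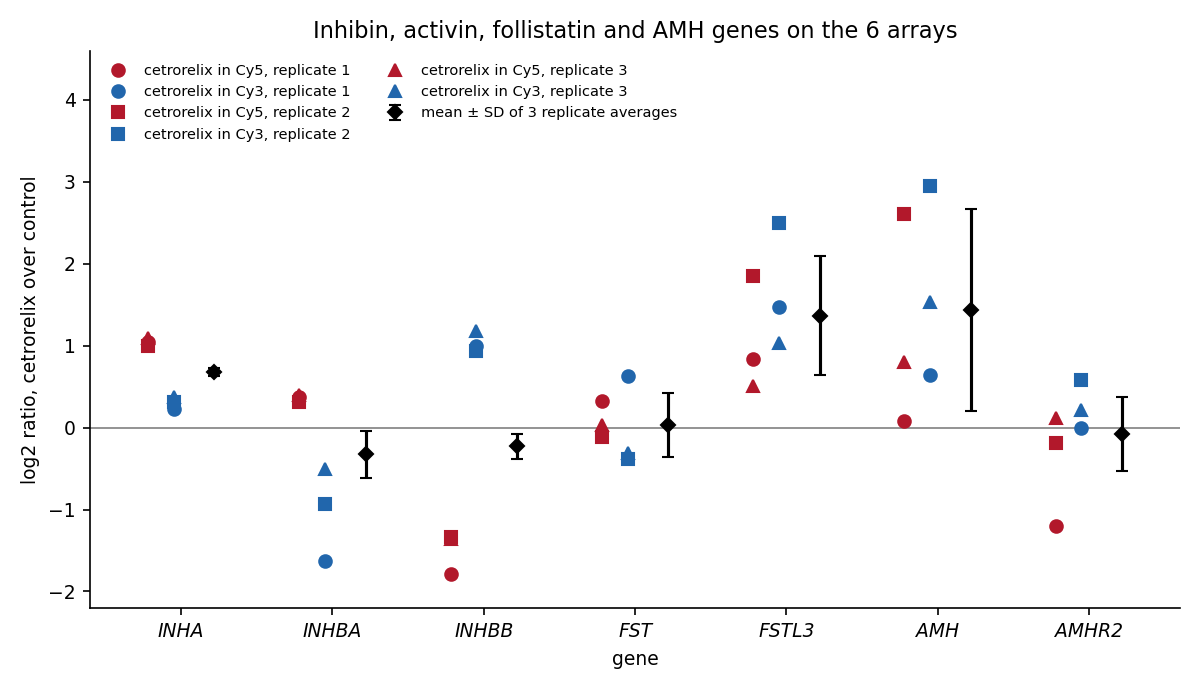
Log2 ratio of cetrorelix over control (vertical axis) for the 7 genes (horizontal axis), with a point for each of the 6 arrays (red, cetrorelix in Cy5, and blue, cetrorelix in Cy3; circles, squares and triangles are replicates 1, 2 and 3) and a black diamond with the mean and SD of the 3 replicate averages. All 6 points of INHA, FSTL3 and AMH lie above 0, and the red and blue points of INHBA and of INHBB lie on opposite sides of 0.

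INHA encodes the alpha subunit that only inhibins contain. Its log2 normalized intensity was 15.84, 16.02 and 15.80 in the cetrorelix cells of replicates 1, 2 and 3, against 15.20, 15.36 and 15.06 in the control cells. The lowest cetrorelix value lay above the highest control value, and non-overlap of this kind held for 13.1% of all probes. The 3 replicate log2 ratios were 0.64, 0.66 and 0.73, the narrowest spread among the 7 genes, with a mean of 0.68 ± 0.051 (SD, n = 3, limma adjusted p = 0.12). The 95% interval of the fold ran from 1.28 to 1.99. In the values computed here the replicates agreed closely, but the dye orientations did not. With cetrorelix in Cy5 the log2 ratios were 1.05, 0.997 and 1.09, and with cetrorelix in Cy3 they were 0.23, 0.32 and 0.38. The orientation with cetrorelix in Cy5 had every value above every value of the other, and the dye coefficient of the INHA probe was 0.37 (limma adjusted p = 0.0611).

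The INHA spots were among the brightest on the arrays. Cetrorelix channels had median intensities between 56580 and 62296 and control channels between 31813 and 51147, where the highest value of any gene probe was 65535. No saturation flag was used here, and the part that the upper limit of the scanner has in the INHA ratio was not tested. With the mean pixel intensity of each spot in place of the median, INHA was again higher on 6 of 6 arrays, but the log2 ratio was 0.22, a fold of 1.17 (limma adjusted p = 0.24). The direction was therefore the same with both statistics, and the size was not. In bulk RNA of this kind, a higher level per cell and a larger share of cells that carry the transcript cannot be told apart.

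INHBA encodes the beta A subunit, which forms activin A or, with INHA, inhibin A. Its log2 level was 15.21, 15.56 and 15.76 in cetrorelix cells, against 15.84, 15.87 and 15.81 in control cells. All 3 cetrorelix values lay below the control values, the nearest pair by a narrow margin. The replicate log2 ratios were -0.62, -0.31 and -0.050, with a mean of -0.33 ± 0.29 (SD, n = 3, limma adjusted p = 0.52) and a 95% interval from -0.69 to 0.039. On single arrays the sign went with the dye. With cetrorelix in Cy5 the log2 ratios were 0.38, 0.31 and 0.40, and with cetrorelix in Cy3 they were -1.62, -0.93 and -0.50. The INHBA spots lay even nearer to the highest recorded intensity. The median intensity passed 60000 in the cetrorelix channel on 3 of 6 arrays and in the control channel on 4 of 6. In the authors' deposited table, INHBA was below 0 on 6 of 6 arrays, between -1.54 and -0.039. The sign on the arrays with cetrorelix in Cy5 thus differed between those values and the ones computed here, and the cause was not tested. INHBA stayed below 0 in 14 of 15 alternatives, but its size was not stable. It was furthest from 0 under scale normalization, at -1.24 (limma adjusted p = 0.76, and not under 0.05 unadjusted). With both orientations, it was under unadjusted p 0.05 by limma in the deposited table (-0.48), under median centring (-0.40) and without replicate 3 (-0.47). It passed at adjusted p under 0.05 in none of these.

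INHBB encodes the beta B subunit of activin B and inhibin B. Its log2 level was 12.19, 11.88 and 11.75 in cetrorelix cells, against 12.58, 12.08 and 11.84 in control cells, and the groups overlapped. The mean log2 ratio was -0.23 ± 0.15 (SD, n = 3, limma adjusted p = 0.69), with a 95% interval from -0.56 to 0.10. A difference between the groups was not detectable for INHBB. Its dye difference was the largest of the 7 genes. The log2 ratios were -1.78, -1.34 and -1.35 with cetrorelix in Cy5, and 0.995, 0.93 and 1.18 with cetrorelix in Cy3. The probe read brighter in Cy3 on 6 of 6 arrays, with a dye coefficient of -1.26 (limma adjusted p = 1.47e-06). Opposite signs by dye on 3 of 3 arrays of each orientation held for 9.94% of all probes and for 2 of 7 genes here, INHBA and INHBB. The same 2 genes had a dye coefficient at adjusted p under 0.05, as did 6.63% of all probes.

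**Figure D2:**
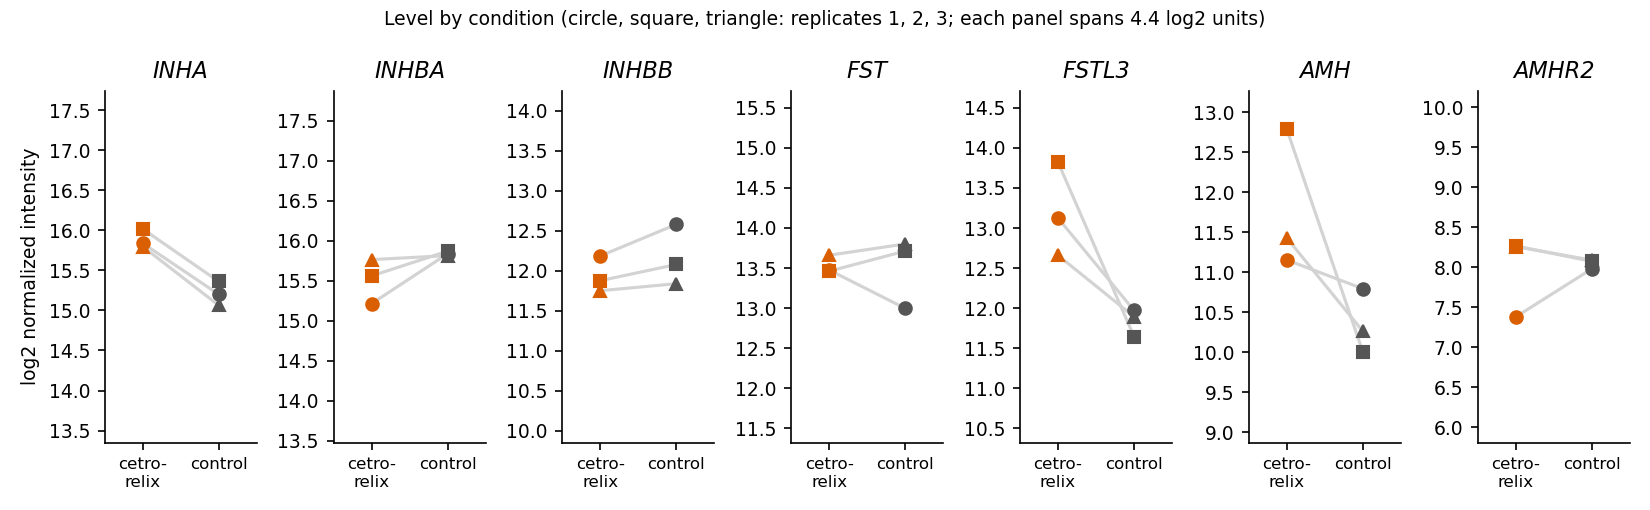
Log2 normalized intensity (vertical axes, each spanning the same number of log2 units) in cetrorelix cells (orange, left) and control cells (grey, right) for the 7 genes, with grey lines joining the replicates. The cetrorelix points of INHA, FSTL3 and AMH lie above the control points, those of INHBA lie below, and INHBB, FST and AMHR2 overlap.

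FST encodes follistatin, the high-affinity activin-binding protein of the follicle. Its log2 level was 13.47, 13.46 and 13.66 in cetrorelix cells, against 12.996, 13.71 and 13.80 in control cells, and the groups overlapped. The replicate log2 ratios were 0.48, -0.25 and -0.14, and the mean was 0.029 ± 0.39 (SD, n = 3, limma adjusted p = 0.98). The 95% interval of the log2 ratio ran from -0.38 to 0.43. The sign of each replicate was the same in both dye orientations for replicates 1 and 2, and differed for replicate 3. Its dye coefficient was 0.049.

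FSTL3, a relative of follistatin that also binds activins and myostatin, ranked first of the 7 genes by its p-value, at position 147 of the 32125 probes. Its log2 level was 13.12, 13.82 and 12.66 in cetrorelix cells, against 11.97, 11.64 and 11.89 in control cells. The groups did not overlap. The single arrays gave log2 ratios of 0.84, 1.86 and 0.50 with cetrorelix in Cy5, and 1.47, 2.50 and 1.03 with cetrorelix in Cy3. In both orientations replicate 2 was highest and replicate 3 lowest. The mean was 1.37 ± 0.73 (SD, n = 3, limma adjusted p = 0.0905), and the moderated 95% interval of the fold ran from 1.75 to 3.81. That interval is narrower than the SD of FSTL3 alone would give. FSTL3 passed when all 6 arrays were fitted and the replicate entered as a random block (log2 ratio 1.37, limma adjusted p = 0.0354), as did 0.470% of all probes in the higher direction. The correlation fitted within replicates, 1 value for all probes, was -0.026, so that fit counted the 6 arrays almost as separate samples. FSTL3 also passed within each orientation, at a log2 ratio of 1.06 ± 0.71 in the Cy5 orientation (adjusted p = 0.0399) and 1.67 ± 0.75 in the Cy3 orientation (adjusted p = 0.0116). Of all probes, 0.946% were called higher in the Cy5 orientation and 2.45% in the Cy3 orientation. A dye effect does not cancel within 1 orientation. FSTL3 also passed without replicate 2 (0.96, limma adjusted p = 0.00340) and without replicate 3 (1.67, adjusted p = 0.00196), and not without replicate 1 (1.47, adjusted p = 0.50). Calls were more common in 2 of these fits, with 260 of 32125 probes higher without replicate 2 and 709 without replicate 3. Without replicate 1, 0 probes were called. With a dye coefficient beside the replicate block, an alternative chosen after seeing the data, FSTL3, AMH and INHA all passed (limma adjusted p = 0.00269, 0.0128 and 0.0208), as did 1.42% of all probes in the higher direction. The fitted correlation was 0.25 there. For FSTL3 and AMH the 2 arrays of a replicate ran together, so both block fits may count more independent samples than the 3 replicates give.

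The FSTL3 spots were far from the upper limit, with median intensities between 5413 and 16846 for cetrorelix and between 2886 and 5341 for control. With mean pixel intensities the log2 ratio was 1.24, higher on 6 of 6 arrays (limma adjusted p = 0.41). In the authors' deposited table, FSTL3 ran from 0.52 to 2.42 and was above 0 on 6 of 6 arrays.

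AMH had the highest mean ratio of the 7 genes and the widest spread between replicates. Its log2 level was 11.15, 12.78 and 11.43 in cetrorelix cells, against 10.80, 10.003 and 10.26 in control cells, without overlap. The replicate log2 ratios were 0.36, 2.78 and 1.16, so replicate 2 stood well above the other two. On single arrays they were 0.076, 2.61 and 0.80 with cetrorelix in Cy5, and 0.64, 2.95 and 1.53 with cetrorelix in Cy3. The order of the replicates was the same in both orientations. The mean was 1.43 ± 1.23 (SD, n = 3, limma adjusted p = 0.18), with a moderated 95% interval of the fold from 1.50 to 4.85. That interval is narrower than the SD of AMH alone would give. The log2 ratio passed at 0.76 without replicate 2 (limma adjusted p = 0.0406) and at 1.57 without replicate 3 (adjusted p = 0.0247). Of 32125 probes, 260 were called higher without replicate 2 and 709 without replicate 3. Without replicate 1 the log2 ratio of AMH was 1.97 and did not pass (limma adjusted p = 0.43), in a fit where 0 of all probes were called. The size of the AMH ratio thus turned on which replicates were included. Its call differed too, as did the number of calls over the whole array. With mean pixel intensities, AMH was higher on 5 of 6 arrays at a log2 ratio of 1.26 (limma adjusted p = 0.45, and not under 0.05 unadjusted), and the lone lower array, replicate 1 with cetrorelix in Cy5, was at -0.024.

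AMHR2, the receptor that binds AMH, was near background. Its probe passed background on 3 of 6 cetrorelix channels and 5 of 6 control channels, with median intensities between 139 and 400 for cetrorelix and between 169 and 269 for control. The log2 level was 7.38, 8.27 and 8.26 in cetrorelix cells, against 7.98, 8.07 and 8.09 in control cells. The mean log2 ratio was -0.079 ± 0.45 (SD, n = 3, limma adjusted p = 0.96), with 3 arrays above 0 and 3 below. A difference in AMHR2 was not detectable at this signal.

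Several of these genes stood in different positions relative to each other within the same replicates. The log2 ratio of INHA exceeded that of INHBA by 1.26, 0.97 and 0.78 in the 3 replicates (mean 1.004 ± 0.24, SD), on 6 of 6 arrays. INHA exceeded INHBB by 1.03, 0.86 and 0.82, but on only 3 of 6 arrays, those with cetrorelix in Cy5. FSTL3 exceeded FST by 0.67, 2.43 and 0.91, and AMH exceeded AMHR2 by 0.96, 2.59 and 0.996, both on 6 of 6 arrays. FSTL3 exceeded INHBA by 1.78, 2.49 and 0.82 on 6 of 6 arrays. These differences carry the limits of their less certain gene, as AMHR2 was near background and INHBA near the highest recorded intensity. With mean pixel intensities, the log2 ratio was 0.22 for INHA and -0.25 for INHBA, a smaller gap than with medians. Each of these 5 differences had p = 0.25 by a two-sided exact sign-flip permutation test over 3 replicates, the smallest p the design allows, and adjusted p = 0.25 over the 5. The pairs were chosen with the values known, so they describe unequal ratios and are no test of them.

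The genes whose ratios lay closest to those of INHA over the 6 arrays were CHPF, UBE3C and XPC, with root mean square differences of 0.17, 0.20 and 0.22 log2 units. For INHBA they were PPIA, LDHA and STK38, at 0.24, 0.25 and 0.34. For AMH the closest genes were further away, CNN1, AXIN1 and FOSL1 at 0.50, 0.53 and 0.56. Likeness here was the distance over 6 arrays among 12398 genes, and it carries no test.

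**Figure D3:**
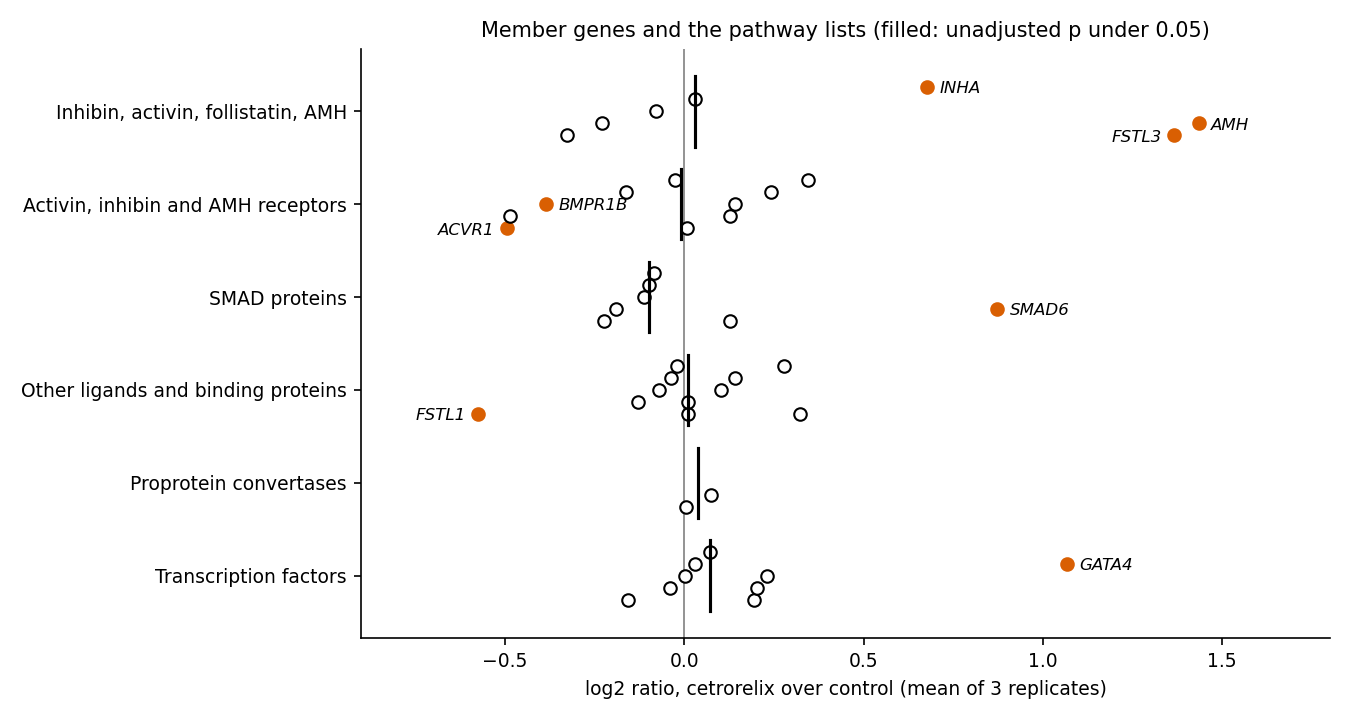
Mean log2 ratio of cetrorelix over control (horizontal axis) for the 7 genes and for each measured gene of 5 pathway lists (rows), with filled points and names at unadjusted p under 0.05 and a vertical bar at the median of each list. The medians of all 6 rows lie between -0.10 and 0.07, and FSTL3, AMH, GATA4, SMAD6 and INHA are the named genes above 0.

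Around these 7 genes, the receptors through which activins, inhibins and AMH signal were measured as well. Activins bind ACVR2A or ACVR2B with ACVR1B, AMH signals with ACVR1, BMPR1A or BMPR1B, and TGFBR3 (betaglycan) is the co-receptor of inhibin. Of 10 measured receptor genes, 0 were higher and 2 lower at unadjusted p under 0.05, and 0 passed when adjusted over all probes. By their brightest probe, 15.7% of all genes passed that p, 7.18% higher and 8.54% lower. The median log2 ratio of the 10 was -0.0095, beside -0.0089 for all genes. The type I receptors ACVR1 and BMPR1B had log2 ratios of -0.49 ± 0.41 and -0.39 ± 0.057 (SD, n = 3, limma adjusted p = 0.33 for each). BMPR1B was lower on 6 of 6 arrays, and its 2 other probes had -0.21 and -0.13, while a second ACVR1 probe had -0.17. The activin receptor ACVR1B had 0.24 ± 0.19, with opposite signs in the 2 dye orientations. BMPR2 had -0.49 ± 0.73 and BMPR1A had -0.16 ± 0.27. The other probes of BMPR2 had -0.11 and -0.10, and those of BMPR1A had 0.19 and -0.41. TGFBR3 had 0.35 ± 0.54, and its 2 other probes were on the other side of 0, at -0.22 and -0.17.

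SMAD proteins carry the signal of these receptors to the nucleus. Of 7 measured SMAD genes, 1 was higher and 0 lower at unadjusted p under 0.05, 0 passed when adjusted, and the median was -0.099. The 1 was SMAD6, an inhibitory SMAD of the BMP branch, at 0.87 ± 0.83 (SD, n = 3, limma adjusted p = 0.25), with means of opposite sign by dye, -1.36 where cetrorelix was in Cy5 and 3.11 where it was in Cy3. The activin-regulated SMAD2 and SMAD3 had 0.13 ± 0.12 and -0.23 ± 0.25, and SMAD9, of the BMP branch, had -0.19 ± 0.16. The other SMAD2 probe had -0.21. SMAD7, an inhibitory SMAD that acts on the activin branch, had -0.086 ± 0.10.

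Among 11 measured ligands and binding proteins of the same family, 0 were higher and 1 lower at unadjusted p under 0.05, 0 passed when adjusted, and the median was 0.0091. The 1 was FSTL1, which carries a follistatin-like domain, at -0.58 ± 0.39 (SD, n = 3, limma adjusted p = 0.25). FSTL1 was lower on 6 of 6 arrays, and its 2 other probes had -0.21 and -0.36, so it lay on the other side of 0 from FSTL3. The ligands NODAL, MSTN (myostatin) and BMP6 had 0.32 ± 0.49, 0.14 ± 0.25 and -0.13 ± 0.18, and the BMP antagonist CHRD had 0.28 ± 0.65. NODAL had opposite signs in the 2 dye orientations, with means of -0.44 where cetrorelix was in Cy5 and 1.09 where it was in Cy3. MSTN passed background on 3 of 6 cetrorelix channels and 4 of 6 control channels. GDF9, BMP4, INHBC and INHBE were not above background on any array. The proprotein convertases PCSK6 and PCSK7, of the enzyme family that cleaves the precursors of these ligands, had 0.0047 ± 0.12 and 0.074 ± 0.39. PCSK7 had opposite signs in the 2 dye orientations, and its other probe had -0.08. FURIN and PCSK5 were below background on too many arrays to be tested.

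Of 9 measured transcription factors known to act on inhibin, follistatin or AMH genes, 1 was higher and 0 lower at unadjusted p under 0.05, 0 passed when adjusted, and the median was 0.072. The 1 was GATA4, which acts on the INHA and AMH promoters in other mammals, with replicate log2 ratios of 1.40, 1.18 and 0.61 (mean 1.07 ± 0.41, SD, n = 3, limma adjusted p = 0.0844). GATA4 was higher on 6 of 6 arrays, as were INHA, AMH and 3.04% of all probes. In the same replicates INHA had 0.64, 0.66 and 0.73, and AMH had 0.36, 2.78 and 1.16. A link of GATA4 to the ratios of INHA or AMH was not tested. SOX9 had 0.23 ± 0.32, WT1 had 0.20 ± 0.17, FOXL2 had 0.20 ± 0.28 and NR5A2 had -0.16 ± 0.30. The other probes of WT1 had 0.05 and -0.09, and those of NR5A2 had -0.04 and 0.41. FOXL2 and SOX9 passed background on 3 of 6 cetrorelix channels and 2 of 6 control channels.

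The label of cumulus cells was set against marker genes. The FSH receptor FSHR and aromatase CYP19A1 were above background on 6 of 6 arrays in both groups. FOXL2, KITLG and WT1 of the same list passed on 3, 3 and 5 of 6 cetrorelix channels and 2, 4 and 4 of 6 control channels. Of theca and stroma markers, COL1A1, ACTA2 and PDGFRA were above background on 6 of 6 arrays in both groups, and COL1A2 and DCN on none. CYP17A1 passed on 4 of 6 cetrorelix and 5 of 6 control channels. Detection thus does not show RNA of theca or stroma to be absent. Of 9 measured granulosa and cumulus markers, 1, CYP11A1, was higher at unadjusted p under 0.05 (1.01 ± 0.85, SD, n = 3, limma adjusted p = 0.21) and 0 were lower. The summed level of that list ran from 26475 to 44927 in cetrorelix cells and from 37879 to 46115 in control cells, in normalized intensity units. The summed level of 6 theca and stroma markers ran from 11896 to 14378 in cetrorelix cells and from 9490 to 11102 in control cells, and ACTA2 was the 1 of the 6 at unadjusted p under 0.05 (0.48 ± 0.16, SD, n = 3, limma adjusted p = 0.25). ACTA2 was higher on 4 of 6 arrays, and its mean was -0.10 where cetrorelix was in Cy5 and 1.06 where it was in Cy3. The theca markers CYP17A1 and INSL3 had log2 ratios of -0.019 ± 0.19 and -0.0037 ± 0.090. The part of these cell types in the ratios of INHA, FSTL3 and AMH was not tested.

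Markers of other cells were mostly dim. Of 4 oocyte, 5 leukocyte, 5 endothelial and 4 erythrocyte markers measured, 0 were higher or lower by limma at unadjusted p under 0.05. Summed levels ran from 1193 to 1593 in cetrorelix and from 1195 to 1325 in control cells for oocyte markers, and from 1298 to 1395 and from 1255 to 1433 for leukocyte markers. They ran from 1114 to 1218 in cetrorelix and from 1109 to 1221 in control cells for endothelial markers, and from 1210.0 to 1903 and from 1148 to 1312 for erythrocyte markers. GDF9, ZP4 and ZAR1 of the oocyte and TYROBP of leukocytes were not above background on any array. In contrast, KPNA7 of the oocyte and PTPRC and CD68 of leukocytes were above background on 6 of 6 arrays in both groups. The same held for HBA, AHSP and GYPC of erythrocytes, so RNA of other cells is not shown to be absent.

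**Figure D4:**
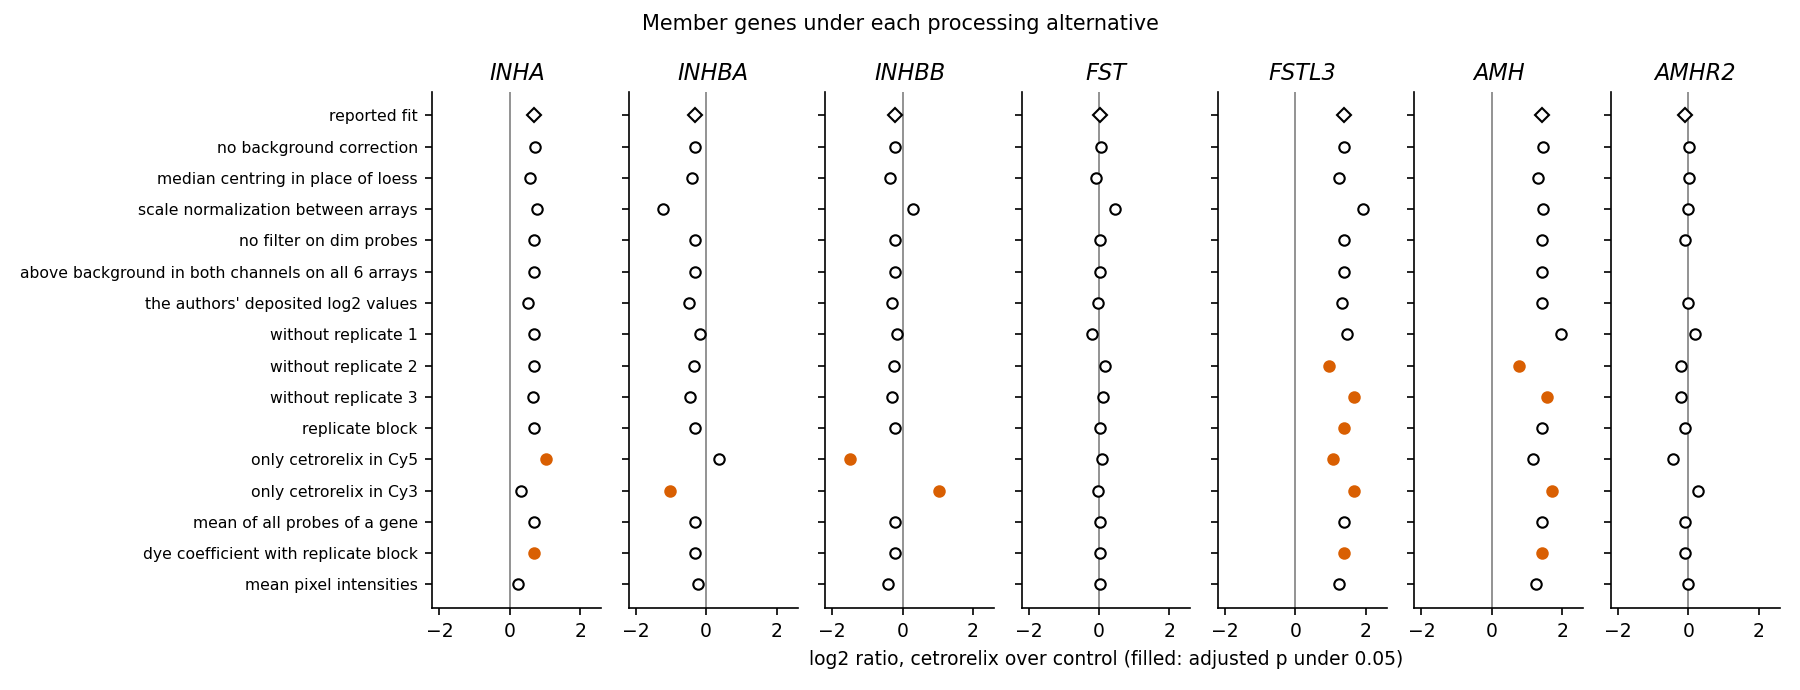
Log2 ratio of cetrorelix over control (horizontal axes) for the 7 genes (panels) in the reported fit (diamond) and under each processing alternative (circles, one row each), filled where adjusted p was under 0.05. INHA, FSTL3 and AMH stay above 0 in all rows, and INHBA, INHBB, FST and AMHR2 cross 0 in at least 1 row.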

How the data were processed

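Two-colour arrays of amplified RNA from cumulus cells were analysed (3 replicates, 6 arrays). Per the file headers, the scanner tables hold spot and local background intensity for Cy5 and Cy3, uncorrected; medians were used. The authors also deposited log2 ratios, which matched the scanner direction as Cy5 over Cy3 and, in the series values, as cetrorelix over control. Their column medians ran from -0.033 to 0.012, and the sources used here do not give the background correction or centring behind them. The submitters' processing notes name limma, without a version.

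Of 45220 spots, 43794 were gene probes and 153 negative controls. Spots marked as ignored, 36 to 94 on an array, were left out. Normexp (offset 50) corrected the background, and loess on gene probes normalized each array. A channel was above background over the 95th percentile of the negative controls, and probes above it on at least 3 arrays in either group were kept (32358). Of those, 32125 had values on all arrays. Log2 ratios of cetrorelix over control were averaged over the dye swap of each replicate and tested with limma 3.58.1 in R 4.3.3. Levels per group came from the same data with Aquantile normalization. Replicate numbers pair the arrays as a dye swap, per the series' design text, and deviations of same-numbered arrays correlated at 0.23, 0.40 and 0.42. Each dye orientation lies on 1 slide, so dye and slide cannot be told apart. P-values and intervals rest on the spread between these replicates, moderated over all probes, and that spread may be technical.

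Symbols came from the platform annotation (21790 probes with 1 symbol, 22004 without). Of these, 20068 are current in the ARS-UCD2.0 gene table, 1644 are synonyms there and 78 were kept as listed. Genes with several probes were represented by the brightest. All 7 genes were named, and pathway genes were named at unadjusted p under 0.05 plus up to 4 more of lowest p. Among cell type markers, those that define a cell type were named after their values were seen. The genes and lists were chosen with earlier results of these data known. Scripts were tested on simulated data. Alternatives covered background, normalization, filter, replicates, block, dye orientation, probe rule, the authors' values, a dye coefficient and mean pixel intensities. The last 2 were chosen after seeing the data.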

Additional observations from a re-analysis of the deposited data

Results flagged for a closer look

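INHBB had a log2 ratio that was lower by 2.53 with cetrorelix in Cy5 than with cetrorelix in Cy3 (difference -2.53), with all 3 arrays of one orientation below 0 and all 3 of the other above 0. The dye coefficient, the Cy5 over Cy3 effect fitted on all 6 arrays, was -1.26 (limma adjusted p = 1.47e-06). INHBA had a difference of 1.39 in the other direction, again with all arrays of each orientation on one side of 0, and a dye coefficient of 0.69 (limma adjusted p = 0.00395). The mean over both orientations, -0.23 for INHBB and -0.33 for INHBA, was small beside these differences. Dye orientation and slide cannot be told apart here.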

How the results depend on the processing

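INHA, FSTL3 and AMH kept their direction under all 15 alternatives, with log2 ratios from 0.22 to 1.04, from 0.96 to 1.92 and from 0.76 to 1.97. FSTL3 passed at adjusted p under 0.05 in 6 of them, AMH in 4 and INHA in 2. With the replicate block, which counted the 6 arrays almost as separate samples (fitted correlation -0.026), FSTL3 passed (1.37), and 236 probes were called in all. The block changed no other call among the 7 genes. With a dye coefficient beside that block (chosen after seeing the data, as were mean pixel intensities), INHA (0.68), FSTL3 (1.37) and AMH (1.43) passed, and 775 probes were called. With cetrorelix in Cy5 only, INHA (1.04), FSTL3 (1.06) and INHBB (-1.49) passed, INHBA reversed (0.37), 1 of the 7 genes was lower at unadjusted p, and 516 probes were called. With cetrorelix in Cy3 only, FSTL3 (1.67), AMH (1.71) and INHBA (-1.02) passed, INHBB (1.04, past the threshold), FST (-0.020) and AMHR2 (0.26) reversed, 1 of the 7 was lower, and 1133 probes were called. Reversals with all 3 replicates and both orientations were INHBB under scale normalization (0.31), FST under median centring (-0.092) and in the authors' deposited table (-0.022), and AMHR2 without background correction (0.014) and under median centring (0.011). The cause of these shifts was not tested.

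Leaving out 1 replicate at a time gave log2 ratios from 0.96 to 1.67 for FSTL3, from 0.76 to 1.97 for AMH, from -0.20 to 0.17 for FST and from -0.22 to 0.18 for AMHR2. Without replicate 1, FST (-0.20) and AMHR2 (0.18) reversed. FSTL3 and AMH passed without replicate 2 and without replicate 3, and neither passed without replicate 1. Probes called numbered 0 without replicate 1, 359 without replicate 2 and 1259 without replicate 3, against 4 in the reported fit. At unadjusted p, 1 of the 7 genes, INHBA, was lower without replicate 3, and 0 without replicate 1 or without replicate 2. Called probes numbered 7 without the filter, 15 among probes above background throughout (fewer probes tested) and 9 from the authors' deposited table. They numbered 0 by limma under scale normalization, when all probes of a gene were averaged, with mean pixel intensities and without replicate 1, with 2414, 1604, 3656 and 2421 at unadjusted p under 0.05. The genes lower at unadjusted p were INHBA and INHBB under median centring, INHBA in the authors' deposited table and INHBB with mean pixel intensities. With mean pixel intensities, those higher were 2 in place of 3. Of probes at unadjusted p under 0.05, 47.6% were higher under loess and 33.3% under median centring. AMHR2 was too dim for the strictest filter. Signal near background limits AMHR2, and signal near the highest recorded intensity limits INHA and INHBA.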

Other observations

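The spot statistic mattered for this array set. Across the 153 negative control spots, the SD of log2 intensity lay between 0.18 and 0.34 on single arrays and channels with the median pixel intensity, and between 0.054 and 0.14 with the mean. The authors' deposited log2 ratios correlated with ratios from medians at 0.84 to 0.996 per array and with ratios from means at 0.73 to 0.85. With mean pixel intensities, INHBB had a log2 ratio of -0.40 at an unadjusted p of 0.0020 (limma adjusted p = 0.22), beside -0.23 from medians. The sign of INHBB still differed between dye orientations on 6 of 6 arrays, with values from -1.95 to -1.72 with cetrorelix in Cy5 and from 0.94 to 1.20 with cetrorelix in Cy3.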
